A study of Saccharomyces cerevisiae with 6 samples.

Results

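Transcript levels of 10 genes of budding yeast (Saccharomyces cerevisiae) that encode NADPH-dependent carbonyl reductases were compared between the mutant strain BH13 and its reference strain, called REF. They were taken by name, each through the systematic name printed for its probe on the array. The set comprises 6 aldo-keto reductases, GRE3, GCY1, YPR1, ARA1, YDL124W and YJR096W, and 4 reductases of the intermediate short-chain class, GRE2, ARI1, YGL039W and YDR541C. These 10 are among 6256 genes with a probe on the array, and all 10 passed the filter on dim probes given with the methods.

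BH13 is a selected mutant with improved resistance to coniferyl aldehyde, a phenolic aldehyde released from lignin that slows yeast growth. Total RNA came from 3 samples of BH13 and 3 of REF, all untreated and grown to log phase in yeast minimal medium. BH13 is 1 mutant strain, and the labels do not say whether replicates were started from separate cultures, so the tests measure the spread between these samples. Each RNA was labelled with Cy3 and hybridised to its own one-colour Agilent yeast array.

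Both enzyme classes use NADPH to turn an aldehyde or ketone into an alcohol. Aldo-keto reductases are barrel-shaped enzymes with broad and overlapping substrates, including sugars and small toxic aldehydes. The intermediate short-chain reductases around GRE2 belong to a separate family with its own nucleotide-binding fold, and GRE2 resembles plant dihydroflavonol reductases. In yeast such enzymes are known for reducing methylglyoxal, xylose and the furan and phenolic aldehydes of plant hydrolysates. Several of the genes, GRE2 and GRE3 among them, were first described as stress-induced.

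Values below are log2 processed signals after subtraction of the array's 75th percentile, so that 0 is the signal of a probe at that percentile. They compare a gene between arrays and not one gene's level with another's, because probes differ in brightness. Differences are BH13 minus REF on that log2 scale, ± the standard error of limma (n = 3 arrays each for BH13 and REF). Precision is limited by these few arrays. A gene is called where limma's p, adjusted by Benjamini-Hochberg over 5890 genes, is under 0.05.

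The arrays were similar in quality. Between 91.4% and 93.8% of gene spots were well above background, and the 75th percentile lay between 2301 and 2888 intensity units on the BH13 arrays and between 2707 and 4905 on the REF arrays. Correlation of log2 signal across genes, which are not independent replicates, was at least 0.994 within a strain and at most 0.877 between strains. The 3 BH13 arrays shared 1 slide and 1 scanning day, while the REF arrays lay on 2 slides scanned on another day, so strain and scanning day cannot be told apart. In bulk RNA, a change in every cell and a change in the share of cells in some state cannot be told apart either.

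All 10 reductase genes rose in BH13. GCY1 and GRE3, both aldo-keto reductase genes, rose 13.5-fold and 7.42-fold, and the other 8 rose between 1.60-fold for YPR1 and 3.02-fold for YJR096W. The median log2 difference of the 10 was 1.10, beside -0.07 over all 5890 genes tested. Most genes differed between these strains, and 38.0% of all genes tested were called higher and 43.3% lower. Of the 10 genes, 6 were called and at least 2-fold higher, as were 17.9% of all genes. In all 10 the 3 BH13 values lay wholly above the 3 REF values, which was so for 39.2% of all genes.

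**Figure D1:**
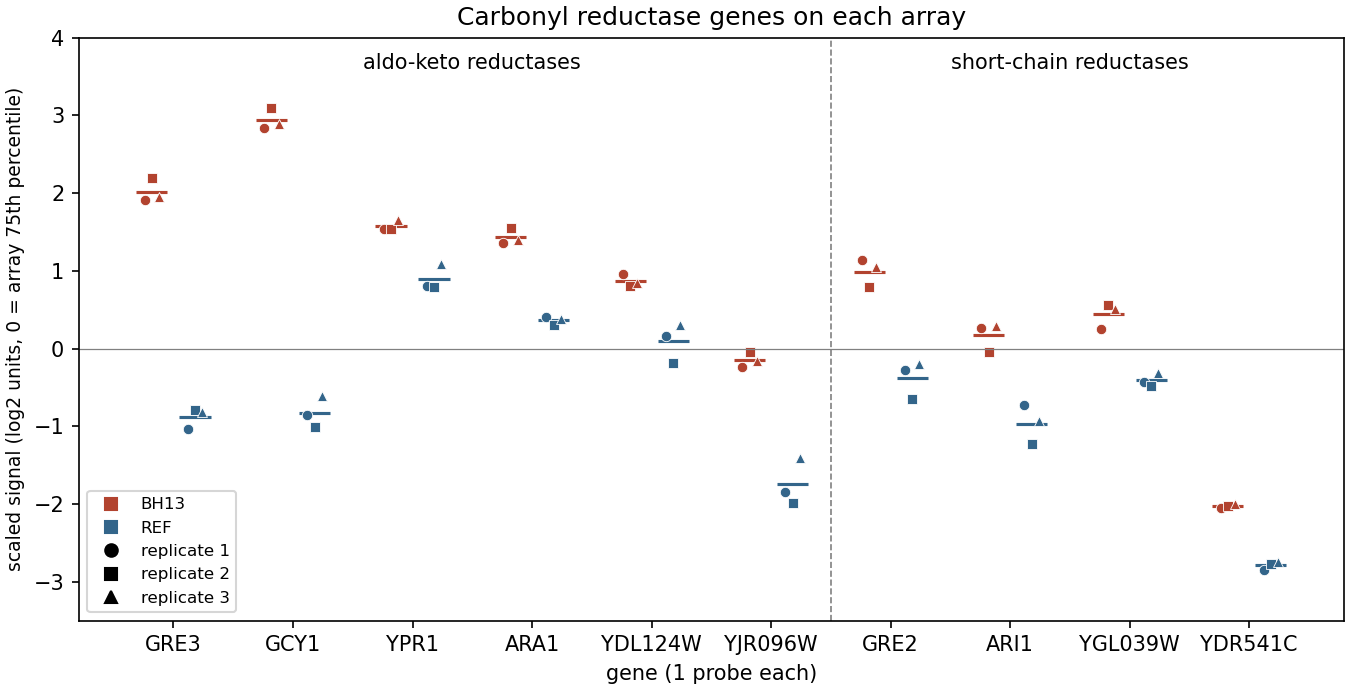
Scaled log2 signal of the 10 genes on each array (vertical axis, log2 units, 0 at the array's 75th percentile), with BH13 on the left of each gene and REF on the right. Points are arrays, shaped by replicate number, and lines are strain means. No BH13 value falls among the REF values of the same gene, and the gap is widest for GCY1 (3.44) and narrowest for YPR1 (0.46).

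GRE3 encodes the main aldose reductase of yeast, which reduces xylose to xylitol and also acts on methylglyoxal. Its values were 1.91, 2.19 and 1.95 in BH13, against -1.03, -0.79 and -0.81 in REF. The strains were far apart relative to the spread within either. The difference was 2.89 ± 0.11 (limma adjusted p = 1.01e-07), and 2.95% of all genes tested had a larger increase.

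GCY1 encodes a glycerol dehydrogenase of the route that breaks down glycerol through dihydroxyacetone. It had values of 2.84, 3.09 and 2.89 in BH13, against -0.85, -1.01 and -0.60 in REF. The processed signal before scaling was between 17204 and 20616 intensity units in BH13 and between 1550 and 2436 in REF, so the groups did not overlap without scaling either. GCY1 showed the largest difference of the 10 genes, at 3.76 ± 0.12 (limma adjusted p = 6.62e-08), and 69 genes on the array rose more.

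YPR1, the paralog of GCY1, encodes an aldo-keto reductase that acts on branched aldehydes such as 2-methylbutyraldehyde. Its values were 1.54, 1.54 and 1.65 in BH13, against 0.81, 0.80 and 1.08 in REF. The groups did not overlap, but the step between them was the smallest of the 10. YPR1 rose by 0.68 ± 0.10 (limma adjusted p = 0.000207), and 24.1% of all genes had a larger increase.

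ARA1 encodes an arabinose dehydrogenase that uses NADP. It had values of 1.36, 1.55 and 1.40 in BH13, against 0.41, 0.30 and 0.38 in REF. Both groups were tight, with standard deviations of 0.10 in BH13 and 0.06 in REF. ARA1 rose by 1.07 ± 0.08, or 2.10-fold (limma adjusted p = 4.03e-06).

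YDL124W encodes an alpha-keto amide reductase that also takes aldehydes. Its values were 0.96, 0.80 and 0.85 in BH13, against 0.17, -0.18 and 0.31 in REF. The REF arrays were more scattered than the BH13 arrays, with standard deviations of 0.08 in BH13 and 0.25 in REF. The increase was 0.77 ± 0.13 (limma adjusted p = 0.000478).

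YJR096W encodes a reductase active on xylose and arabinose. It had values of -0.23, -0.05 and -0.16 in BH13, against -1.85, -1.98 and -1.40 in REF. REF replicate 3 was the highest of its strain and still lay 1.17 below the lowest BH13 array. The gene rose by 1.59 ± 0.14 (limma adjusted p = 1.25e-05), the third largest step among the 10 genes.

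Among the short-chain enzymes, GRE2 encodes a methylglyoxal reductase that also reduces 3-methylbutanal. Its values were 1.14, 0.79 and 1.05 in BH13, against -0.28, -0.65 and -0.19 in REF. Replicate 2 was the lowest array in both strains. GRE2 had the largest difference of the 4 short-chain genes, at 1.37 ± 0.14 or 2.58-fold (limma adjusted p = 2.63e-05).

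ARI1 encodes an aldehyde reductase with activity on furfural and other aliphatic and aromatic aldehydes. It had values of 0.27, -0.04 and 0.30 in BH13, against -0.73, -1.23 and -0.93 in REF. As for GRE2, the lowest array of each strain was replicate 2. ARI1 rose by 1.14 ± 0.14, or 2.20-fold (limma adjusted p = 0.000104).

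YGL039W encodes an aldehyde reductase closely related to ARI1. Its values were 0.25, 0.57 and 0.52 in BH13, against -0.43, -0.48 and -0.32 in REF. Here the lowest BH13 array was replicate 1 and not replicate 2. YGL039W rose by 0.85 ± 0.10, or 1.81-fold (limma adjusted p = 6.69e-05).

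YDR541C, the remaining short-chain gene, encodes an aldehyde reductase and lies near the right end of chromosome IV, with 2 annotated protein-coding genes beyond it. It had values of -2.05, -2.02 and -1.99 in BH13, against -2.85, -2.77 and -2.74 in REF. Both groups were tight, with standard deviations of 0.03 in BH13 and 0.06 in REF. The gene rose by 0.76 ± 0.07, or 1.70-fold (limma adjusted p = 1.45e-05).

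**Figure D2:**
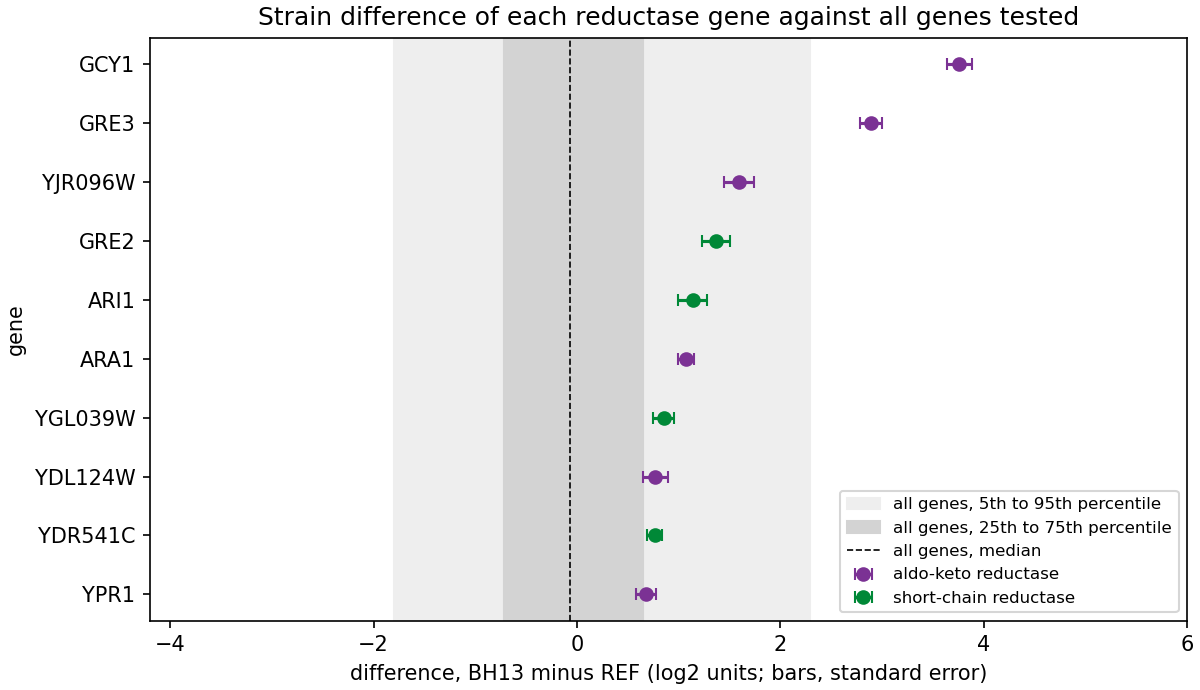
Difference between strains for each gene (horizontal axis, BH13 minus REF, log2 units; bars are standard errors of limma, n = 3 arrays per strain), sorted by size. Grey bands hold the middle of all 5890 genes tested, from -0.72 to 0.65 for the inner band (25th to 75th percentile) and from -1.80 to 2.29 for the outer one (5th to 95th). GCY1 at 3.76 and GRE3 at 2.89 lie beyond the outer band, and YPR1 at 0.68 lies just beyond the inner one.

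The spots behind these values were bright and repeatable. Whether probes of related members, such as GCY1 and YPR1 or ARI1 and YGL039W, read one another was not checked. Duplicate spots of 1 probe cannot show this. Each gene had 2 spots of 1 probe on every array, and all of them were well above background with none marked as an outlier. Duplicate spots differed by at most 0.19 log2 units, which is below the narrowest gap of 0.46 between strains. Standard deviations between arrays ran from 0.03 to 0.19 in BH13 and from 0.06 to 0.30 in REF. On the signal before scaling, 6 of the 10 genes lay wholly above REF in BH13, as did 16.2% of all tested genes, and YPR1, YDL124W, YGL039W and YDR541C overlapped. The REF array with the highest 75th percentile, replicate 2, held the highest unscaled REF signal of all 10 genes. YPR1, for example, had 6693 to 8407 intensity units in BH13 and 4900 to 8516 in REF.

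The 2 classes overlapped in the size of their increase. Aldo-keto reductase genes rose by 0.68 to 3.76, with a median of 1.33, and short-chain genes by 0.76 to 1.37, with a median of 1.00. The genes were then sorted by these same differences, which fixed the direction of every step, so the steps show sizes only. Whether the ratios of a step overlap is therefore no support for the order. In that order GCY1 stood above GRE3 by 0.87 ± 0.14 and GRE3 above YJR096W by 1.30 ± 0.18. The within-array ratios of these 2 steps did not overlap between strains. How often the ratios of other gene pairs on the array separate was not counted. Further down the order most steps between adjacent genes were small. YJR096W and GRE2 were apart by 0.23 ± 0.19, ARI1 and ARA1 by 0.07 ± 0.20, and YDL124W and YDR541C by 0.01 ± 0.16, all with overlapping ratios. GRE2 over ARI1, at 0.23 ± 0.09, and ARA1 over YGL039W, at 0.22 ± 0.08, were the lower steps whose ratios did not overlap. Their lowest BH13 ratios, 0.75 and 0.89, lay just above the highest REF ratios of 0.74 and 0.84, while duplicate spots differed by up to 0.19.

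Related genes were also compared within each array, since the ratio of 2 probes on the same array does not depend on how arrays are scaled. With 3 arrays against 3, an exact two-sided permutation test cannot give a p below 0.1, and 7 pairs were compared. GCY1 over YPR1 changed most, by 3.08 ± 0.11 on the log2 scale, or 8.45-fold (exact permutation p = 0.1, Benjamini-Hochberg adjusted p = 0.14 over the pairs). The log2 ratio of their signals was 1.29, 1.55 and 1.23 in BH13, against -1.66, -1.81 and -1.69 in REF. The BH13 ratios thus lay far above the REF ratios, and the p is the smallest this design allows.

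GRE3 over YJR096W changed by 1.30 ± 0.18, GRE2 over YDR541C by 0.60 ± 0.18, GRE2 over YGL039W by 0.51 ± 0.22 and GRE2 over ARI1 by 0.23 ± 0.09. In each of these 4 pairs the BH13 ratios lay above all REF ratios, with the same p = 0.1 from the exact permutation test. Single genes often separated too: of 5890 tested, 2307 lay wholly above REF in BH13 and 2625 wholly below. The share of all gene pairs whose ratios separate was not counted, so separation cannot be called particular to these pairs. For 2 of the 4 pairs the separation was narrow. The lowest BH13 ratio of GRE2 over ARI1 was 0.75, against a highest REF ratio of 0.74. For GRE2 over YGL039W these were 0.22 and 0.16. Duplicate spots differed by up to 0.19. ARA1 over YDL124W, at 0.30 ± 0.15, and ARI1 over YGL039W, at 0.28 ± 0.23, had ratios that overlapped between strains (exact permutation p = 0.2 for both), and the second was 0.14 without BH13 replicate 1, 0.45 without BH13 replicate 2 and 0.18 without REF replicate 2. In BH13 the standard deviation of the ratio was lowest for GRE2 over ARI1, at 0.06, with GRE3 over YJR096W at 0.07. In REF it was lowest for GCY1 over YPR1, at 0.08, and was 0.14 for GRE2 over ARI1.

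**Figure D3:**
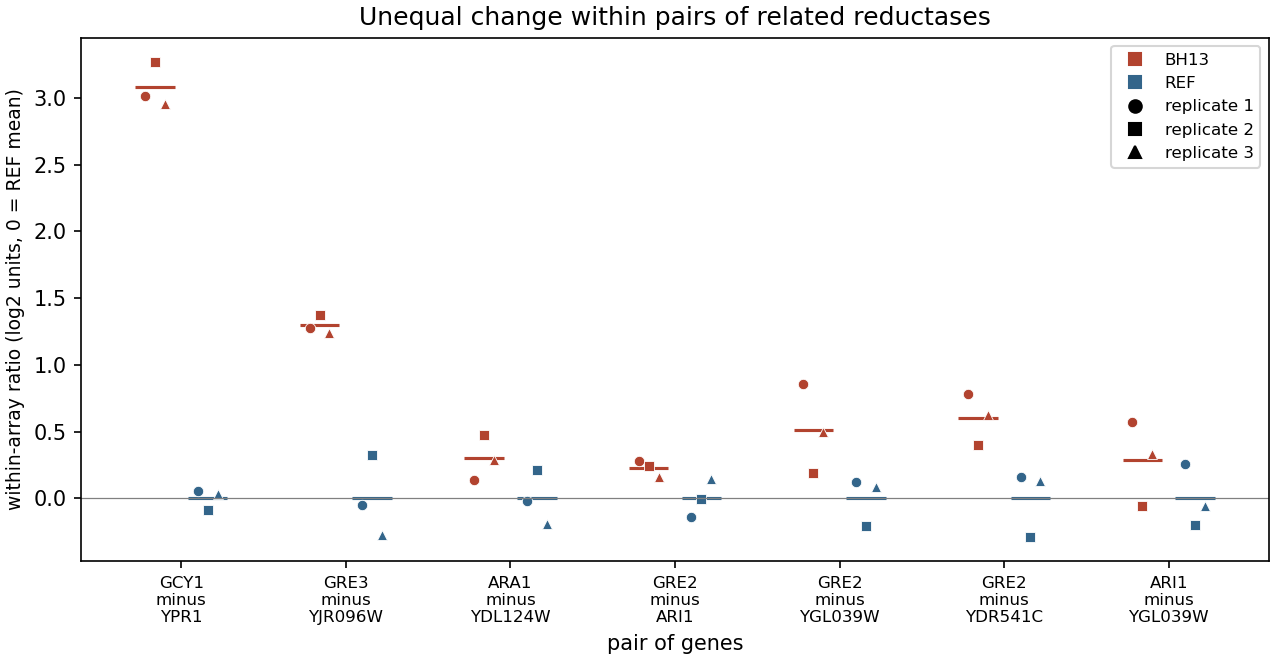
Within-array log2 ratio of 2 genes (vertical axis, log2 units) for 7 pairs, each shown relative to its REF mean, with BH13 on the left and REF on the right of each pair. Points are arrays and lines are strain means. The ratio of GCY1 to YPR1 is 3.08 higher in BH13, while the ratios of ARA1 to YDL124W and of ARI1 to YGL039W overlap between strains.

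Other reductases of aldehydes, ketones and enones, among them alcohol dehydrogenases, aryl-alcohol dehydrogenases and old yellow enzymes, went both ways. Of 17 tested genes, 9 were higher and 5 lower, and the median difference was 0.36. BDH2, a butanediol dehydrogenase homolog, rose by 4.81 ± 0.12 and OYE3, an old yellow enzyme, by 4.32 ± 0.12, while ADH4, an alcohol dehydrogenase gene, had a difference of -4.44 ± 0.16. ADH4 signal passed background clearly on 2 BH13 arrays, and the value after normexp background correction was -2.56. ADH6, named after its value was seen, encodes an NADPH-dependent cinnamyl alcohol dehydrogenase and fell by 0.80 ± 0.09 (limma adjusted p = 4.25e-05).

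Genes that oxidise aldehydes were mostly higher. Of 8 aldehyde dehydrogenase genes, 6 were higher and 2 lower, and their median was 1.39. ALD3 and ALD4 rose by 4.61 ± 0.17 and 4.51 ± 0.12, and ALD6, the cytosolic enzyme that makes NADPH and acetate, by 2.36 ± 0.10.

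NADPH supply genes, which provide the cofactor of the reductases, went both ways, with more higher than lower. Of 13 genes, 9 were higher and 3 lower, and the list median was 0.62. The genes that fell were MAE1, which encodes malic enzyme, by 1.27 ± 0.11, SOL3, a paralog of SOL4, by 1.04 ± 0.08, and IDP1, the mitochondrial NADP-dependent isocitrate dehydrogenase gene, by 0.64 ± 0.12. SOL4 and GND2, minor paralogs of pentose phosphate enzymes, rose by 4.21 ± 0.16 and 3.09 ± 0.12. ZWF1, which encodes glucose 6-phosphate dehydrogenase, the entry enzyme of that pathway, rose by 0.62 ± 0.09.

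All 7 genes of the list for methylglyoxal and glyoxalases rose, with a median of 1.67, and GRE2 and GRE3 act on the same compound. GLO1, glyoxalase I, rose by 1.67 ± 0.11 and GLO2, the cytosolic glyoxalase II, by 1.54 ± 0.11. The largest increases were those of HSP33 at 3.73 ± 0.08, HSP32 at 3.68 ± 0.09 and SNO4 at 3.40 ± 0.08. These 3 genes are nearly identical copies in the family of the glyoxalase III HSP31, so their probes may read one another, and HSP31 itself rose by 0.58 ± 0.08.

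All 4 genes of the polyol and xylose route, which continues from the xylitol made by GRE3, rose with a median of 1.78. XYL2, xylitol dehydrogenase, rose by 1.98 ± 0.10 and XKS1, xylulokinase, by 1.86 ± 0.10. SOR2 rose by 1.70 ± 0.09, or by 0.70 with normexp background correction. SOR1 and SOR2 are near-identical sorbitol dehydrogenase genes and were clearly above background on 2 REF arrays of 3, so that list holds 2 genes where all 6 arrays must pass.

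Genes of dihydroxyacetone and glycerol, the compounds around GCY1, had 6 of 10 higher and 1 lower, with a median of 0.71. DAK1, the dihydroxyacetone kinase that follows GCY1 in glycerol breakdown, rose by 1.53 ± 0.07. GUT2, mitochondrial glycerol 3-phosphate dehydrogenase, rose by 1.91 ± 0.09 and GPD1, the osmotically induced enzyme of glycerol synthesis, by 1.61 ± 0.15. GUT1, glycerol kinase, was the 1 gene called lower and fell by 1.28 ± 0.11.

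**Figure D4:**
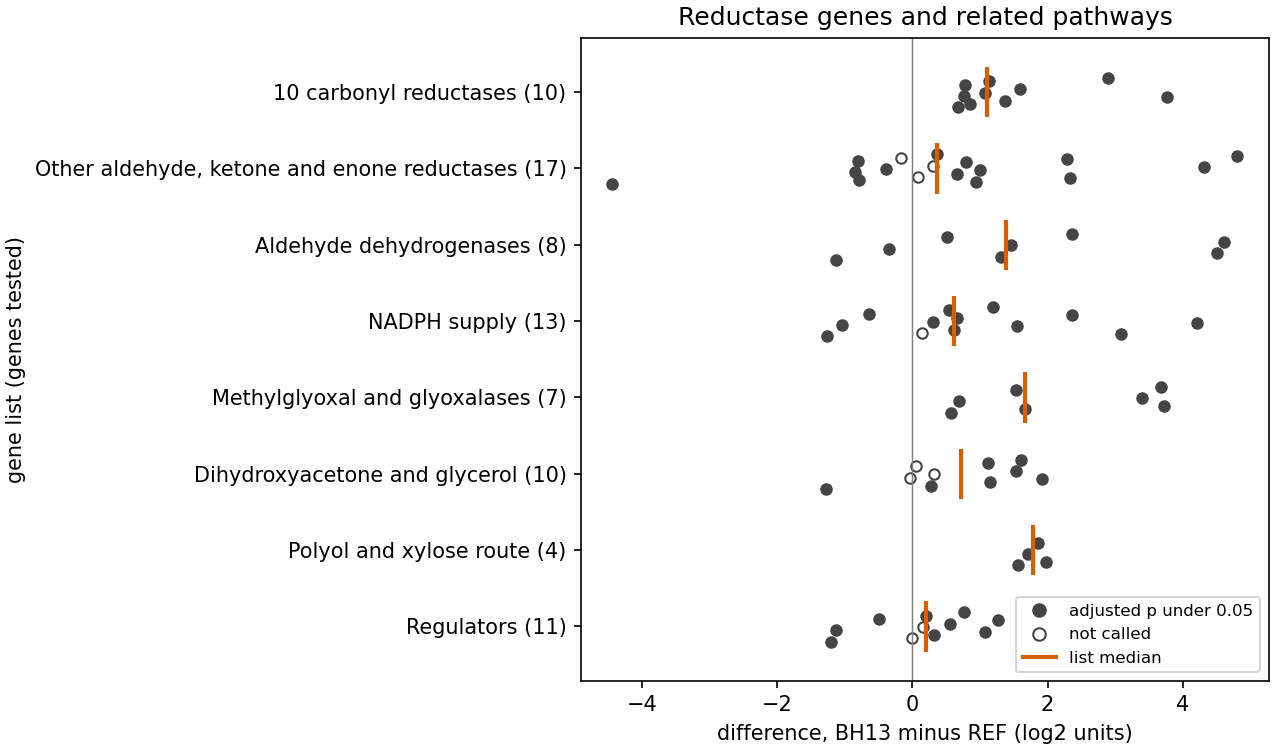
Differences between strains (horizontal axis, BH13 minus REF, log2 units) for the 10 reductase genes and 7 lists of related genes, 1 point per gene tested. Filled points were called by limma at an adjusted p under 0.05, and vertical bars are list medians. All points of the carbonyl reductases, the methylglyoxal list and the polyol list lie above 0, while the other lists have points on both sides.

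Genes of regulators known for stress, drug and NADPH responses went both ways. Of 11 genes, 6 were higher and 3 lower, and the median difference was 0.20. YAP1, the oxidative stress activator, rose by 0.76 ± 0.08, and the drug response activators PDR1 and PDR3 by 1.27 ± 0.10 and 1.07 ± 0.08. HOG1, the kinase of the osmotic stress pathway, rose by 0.33 ± 0.07 and SKO1, a repressor under its control, by 0.56 ± 0.08. HOT1, another factor of that pathway, fell by 1.21 ± 0.08, SKN7, an oxidative stress factor, by 1.12 ± 0.15, and STB5, an activator of NADPH-producing genes, by 0.50 ± 0.09, which was a fall of 0.29 with normexp background correction.

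The genes of the general stress activators had small differences. MSN4 was called higher at 0.20 ± 0.07 (limma adjusted p = 0.0353), a call that ended under 6 alternatives, among them the array left out being BH13 replicate 1 or 3 or REF replicate 1 or 3 (limma adjusted p up to 0.117). MSN2, at 0.16 ± 0.10, was not called (limma adjusted p = 0.167), while normexp gave 0.23 and a call (limma adjusted p = 0.0398). Without REF replicate 3 the MSN2 difference was 0.059. HSF1, the heat shock factor gene, had a difference of -0.0044 ± 0.094 and was not called (limma adjusted p = 0.968).

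Marker lists for stress, growth and mating type also differed between the strains. All 10 general stress genes rose, with a median of 4.20, and their mean log2 value was 2.17 to 2.33 on BH13 arrays and -2.16 to -1.50 on REF arrays. All 5 growth genes fell, with a median of -2.75 and a mean value of -0.27 to -0.16 in BH13 and 2.55 to 2.63 in REF. All 6 haploid genes fell, with a median of -3.15, or -2.75 with normexp background correction. All 6 a-cell markers fell too, but the size of their difference rests on probes near background in BH13: the median was -5.89 as fitted, -5.59 with MFA2 and AGA2 at the detection bound, and -4.17 with normexp. With that correction MFA1 and MFA2, the genes of the a-factor pheromone, had differences of -5.00 and -4.86, against -7.72 and -7.97 without it. The mean value of the a-cell list was -6.43 to -6.04 in BH13 and -0.45 to -0.39 in REF, and no BH13 array had MFA2 or AGA2 well above background. For the haploid list the mean value was -4.42 to -4.30 in BH13 and -0.61 to -0.51 in REF. Of 3 tested alpha-cell markers 2 were higher and 1 was not called. The 2 were dim in both strains. STE3 rose by 0.44 and MF(ALPHA)1 by 1.07, which ranged from 0.58 to 1.21 under the alternatives. The mean value over the 4 on the array was -5.72 to -5.52 in BH13 and -6.15 to -5.70 in REF. The part of any of these in the reductase increase was not tested.

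By their values on the 6 arrays, each centred on the gene's own mean, the 4 genes most like GCY1 were CWP1, TRX2, MAL11 and GAC1. Their root mean square distances from GCY1 were 0.07 for CWP1, a cell wall mannoprotein gene, 0.09 for TRX2, a thioredoxin gene, 0.09 for MAL11, a maltose transporter gene, and 0.10 for GAC1, which encodes a phosphatase subunit of glycogen control. The strain difference dominates this measure, and these genes rose by 3.69 to 3.90. With normexp background correction the rise was 2.88 for GAC1, which was dim in REF, and 3.49 for CWP1. GRE3, the nearest of the other reductases, lay 0.46 away, with 136 genes nearer to GCY1.

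Genes beside the reductases on the chromosomes showed no common direction. Of the 20 adjacent protein-coding genes in the R64 annotation, 9 were higher, 8 lower and 3 not called. Over all genes tested, 38.0% were higher and 43.3% lower, so these counts are near the shares of the whole array. The 5 neighbours with the largest differences, and PFY1, were named after their values were seen. AMS1, vacuolar alpha-mannosidase, beside ARI1 on chromosome VII, rose by 2.86 ± 0.09, and SFC1, a mitochondrial succinate and fumarate carrier gene, beside YJR096W on chromosome X, rose by 2.82 ± 0.29, or by 1.76 with normexp background correction. IRC4, beside YDR541C on chromosome IV, rose by 1.81 ± 0.14. GCY1 lies between 2 genes that moved in opposite directions on chromosome XV, since RIO1, a kinase gene of ribosome maturation, fell by 1.76 ± 0.07 and PFY1, the profilin gene, rose by 1.33 ± 0.08. FRE7, a metal reductase gene beside GRE2, had a difference of -1.85 ± 0.11 that shrank to -0.050 and was no longer called with normexp background correction (limma adjusted p = 0.797).

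The authors' deposited table, which holds 1325 of the probes, lists 4 of the 10 genes. In the authors' deposited table the values of GCY1 were 1.73, 1.89 and 1.72 in BH13, against -1.97, -2.12 and -1.72 in REF, a difference of 3.71. The differences in the authors' deposited table were 2.81 for GRE3, 1.61 for YJR096W and 1.04 for ARA1. Every probe there differs by at least 0.92 between strains, and GRE2 and ARI1, at 1.37 and 1.14 from the scanner files, are not in it.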

How the data were processed

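Per the file headers, the scanner files were made with Agilent Feature Extraction 10.7.3.1, and they give intensity as a linear, background-subtracted signal for each spot. The submitters' processing notes name version 9.1. The authors' deposited table holds log2 values. How its probes were chosen and normalized is not stated. Each of its rows is centred on a median of 0, and its columns have medians of -0.58, -0.53 and -0.55 (BH13) and 0.56, 0.60 and 0.52 (REF). Set against the scanner files, the differences between strains had a slope of 1.00 and the same sign for all 1325 probes.

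Control and outlier spots were left out. The log2 processed signals of the 2 spots per probe were averaged, and the array's 75th percentile was subtracted. Testing took the 5890 genes with a probe well above background on at least 3 of 6 arrays and left out 366. Names came from the RefSeq R64 table, which matched 5756 probes. Strains were compared two-sided with limma 3.58.1 (lmFit and eBayes, R 4.3.3) and Benjamini-Hochberg adjustment, after a check on simulated data. Figures used matplotlib 3.10.9.

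Members, lists, tests and the naming rule were chosen with earlier results of these data known. The rule names all members, up to 3 called genes with the largest differences per list, all regulators, and the 4 genes most like the member with the largest difference. ZWF1, MAE1, SOL3, IDP1, GLO1, GLO2, HSP31, GUT1, ADH6 and the neighbours were named after their values were seen. Alternatives changed the background correction (normexp on median signals, offset 50), scaling, filters, variance model or source of values, took the replicate or slide as a block, or left out an array.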

Additional observations from a re-analysis of the deposited data

How the results depend on the processing

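All 154 values of the 10 reductase genes under the alternatives kept their direction and their call. In the 15 alternatives on scanner files all 10 genes were called higher. Settings that changed only the filter, the outlier spots, the variance model or the replicate block could alter the p of these genes but not their differences. The authors' table holds only probes that differ by at least 0.92, so its 4 values could hardly lose their call. With each array left out in turn the count of higher genes stayed at 10, and the differences ranged from 3.67 to 3.87 for GCY1 and from 0.63 to 0.77 for YPR1. The authors' table gave 4 genes higher, since it holds 4 of them, with 581 of all genes higher and 744 lower among its 1325 probes. Among all genes, leaving out an array gave 2136 to 2254 higher and 2405 to 2515 lower. All 49 values of the within-array ratios kept their direction. The values that moved by over 1.5 times were GRE2 over ARI1, 0.39 with normexp against 0.23, and ARI1 over YGL039W, 0.14 without BH13 replicate 1, 0.45 without BH13 replicate 2 and 0.18 without REF replicate 2, against 0.28 with all arrays. With the replicate number as a block the count of reductase genes was 10 and those of all genes were 2270 higher and 2576 lower. Same-numbered arrays had correlations of deviations of 0.13, 0.24 and 0.0027, and 4 of the 6 arrays correlated best with their own number. These values do not settle whether the numbers pair samples, and the main comparison did not pair them. HSF1, not called in any setting, turned to 0.064 with normexp and to 0.026 with median centring, and ranged from -0.059 to 0.081 with an array left out. Taking the slide as a random effect left the reductase count at 10, with 2199 of all genes higher and 2510 lower, but only REF spans several slides, so scanning day is untested. Median centring and quantile normalization moved the median of all genes to -0.04 and -0.08.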
